A study of Mus musculus with 7 samples.

Results

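Of the 47643 genes measured in mouse alveolar macrophages, 65 protein-coding genes of fatty acid oxidation and of the peroxisome are described here. They were chosen by gene name and not by their values: the acyl-CoA dehydrogenases (Acad genes), the acyl-CoA oxidases (Acox genes), the peroxins (Pex genes), the acyl-CoA thioesterases (Acot genes), the long-chain acyl-CoA synthetases Acsl1 to Acsl6, the carnitine palmitoyltransferases (Cpt1 and Cpt2 genes), and Hadh, Hadha, Hadhb, Ehhadh, Hsd17b4, Acaa1a, Acaa2, Eci1, Eci2, Decr1, Etfa, Etfb and Etfdh. Another 1 gene with a matching name was not protein-coding and was left out. A mean of at least 1 TPM over the 7 libraries was reached by 55 of the 65, and these were tested within a fit over all 11397 genes that reached it. TPM is a gene's share of its library after division by gene length, so levels can be set side by side between genes.

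Poly(A) RNA was sequenced from 3 WT libraries, labelled as CD11c+ F480+ SiglecF+ cells, 3 libraries of genotype cSiah1a/2f/f::Lyz2cre (Lyz2cre below) and 1 library of genotype cSiah1a/2f/f::CD11ccre (CD11ccre below), all from lung. The floxed genes are Siah1a and Siah2, which code for E3 ubiquitin ligases with a RING domain, and Cre is driven by the lysozyme gene Lyz2, which is active in most myeloid cells, or by the CD11c promoter, which is active in alveolar macrophages and dendritic cells. The labels do not give age, sex, whether replicates were separate animals, or whether WT animals carried floxed alleles or Cre, so the tests speak only to the spread between these libraries, which may be technical. The comparison asks how loss of both ligases alters alveolar macrophages, whose differentiation the series names as its subject.

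Mitochondria and peroxisomes both shorten fatty acids by beta-oxidation, a spiral of dehydrogenation, hydration, a second dehydrogenation and thiolytic cleavage. A fatty acid is first joined to coenzyme A, then long chains enter mitochondria through the carnitine shuttle, while peroxisomes take very long and branched chains and hand the shortened products on. The peroxins build peroxisomes: some insert membrane proteins, some carry enzymes across the membrane, and some divide the organelle. Alveolar macrophages clear lung surfactant, a lipid-rich film, and their handling of fatty acids depends on the nuclear receptor PPAR gamma. PPARs, as dimers with RXR, switch on many genes of both spirals in liver, fat and muscle.

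Siah1a stood at 16.6, 6.72 and 13.4 TPM across WT, at 0, 0 and 0.05 TPM across Lyz2cre and at 0 TPM in the CD11ccre library, and Siah2 at 12.7 to 17.3 TPM across WT, 1.45 to 1.95 TPM across Lyz2cre and 1.21 TPM in CD11ccre. The labels and both targets thus point the same way in each library. All 12 alveolar macrophage markers listed were expressed, and all 6 of the eosinophil and mast cell markers were listed at 0. Between 10883 and 11518 genes reached 1 TPM in a library. The libraries also differed in ways that touch every value below. Chil3, a chitinase-like protein gene, and the 2 ferritin genes Ftl1 and Fth1 made up 4.90% to 5.29% of the TPM in WT, 14.4% to 16.3% in Lyz2cre and 13.99% in CD11ccre, which leaves less of the fixed sum for other genes. Mitochondrially encoded genes took 7.54% to 9.25%, 2.67% to 4.61% and 4.23%. Lyz2 stood at 72.6 to 86.3 TPM across WT, 46.6 to 61.9 TPM across Lyz2cre and 50676 TPM in CD11ccre, so the WT and Lyz2cre libraries were alike in its low level. In bulk RNA, fewer cells of a type and less RNA per cell cannot be told apart.

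In Lyz2cre against WT, 3 of the 55 tested members fell and 0 rose, and 52 did not pass the test. The 3 were Acot1 and Acot2, which encode cytosolic and mitochondrial thioesterases that split long-chain acyl-CoA, and Pex7, the import receptor for peroxisomal enzymes that carry the second type of targeting signal. They make up 5.45% of the members tested, beside 4.60% of all genes called lower, and 0 members rose beside 2.17% of all genes called higher. At an unadjusted p under 0.05, 17 members were lower (30.9%, all genes 18.7%) and 3 were higher (5.45%, all genes 5.96%). In CD11ccre against WT 0 members passed in either direction, beside 1.99% of all genes lower and 0.895% higher. At an unadjusted p under 0.05, 9 members were lower (16.4%, all genes 18.8%) and 2 were higher (3.64%, all genes 3.45%). The members' calls at the adjusted threshold are thus few in either line and close to the share over all genes. At the unadjusted threshold the share of members lower in Lyz2cre was above that of all genes, a difference that was not tested.

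Among the 55 tested members, 19 had every Lyz2cre library below every WT library, which is 34.5% beside 23.3% of all genes. In 4 members every Lyz2cre library was above every WT library, which is 7.27% beside 7.45% of all genes. The median log2 fold change of the members was -0.25 in Lyz2cre and -0.23 in CD11ccre, beside -0.16 and -0.29 over all genes, a distance of -0.08 and 0.06. A log2 fold change below 0 was found in 39 members in Lyz2cre (70.9%, all genes 67.0%) and in 35 in CD11ccre (63.6%, all genes 73.2%). Median-of-ratios scaling, which sets each library by its typical gene, moves the median of all genes to 0.0020 in Lyz2cre, and that of the members to -0.09 there and to 0.07 in CD11ccre, where its sign turns. With that scaling 8 members were wholly below WT (14.5%, all genes 12.4%) and 6 wholly above (10.9%, all genes 13.9%). The split of all genes moved with it from 247 higher and 524 lower to 337 higher and 207 lower, and the members' calls from 0 higher and 3 lower to Pex11a higher and Acot1 lower. With TPM rescaled over nuclear protein-coding genes, 13 members and 1453 genes in all were lower. The count of members called lower thus ran from 0 to 13 with the setting, and it was 0 when WT replicate 2 or any 1 of the Lyz2cre libraries was left out and 1 without WT replicate 1.

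**Figure D1:**
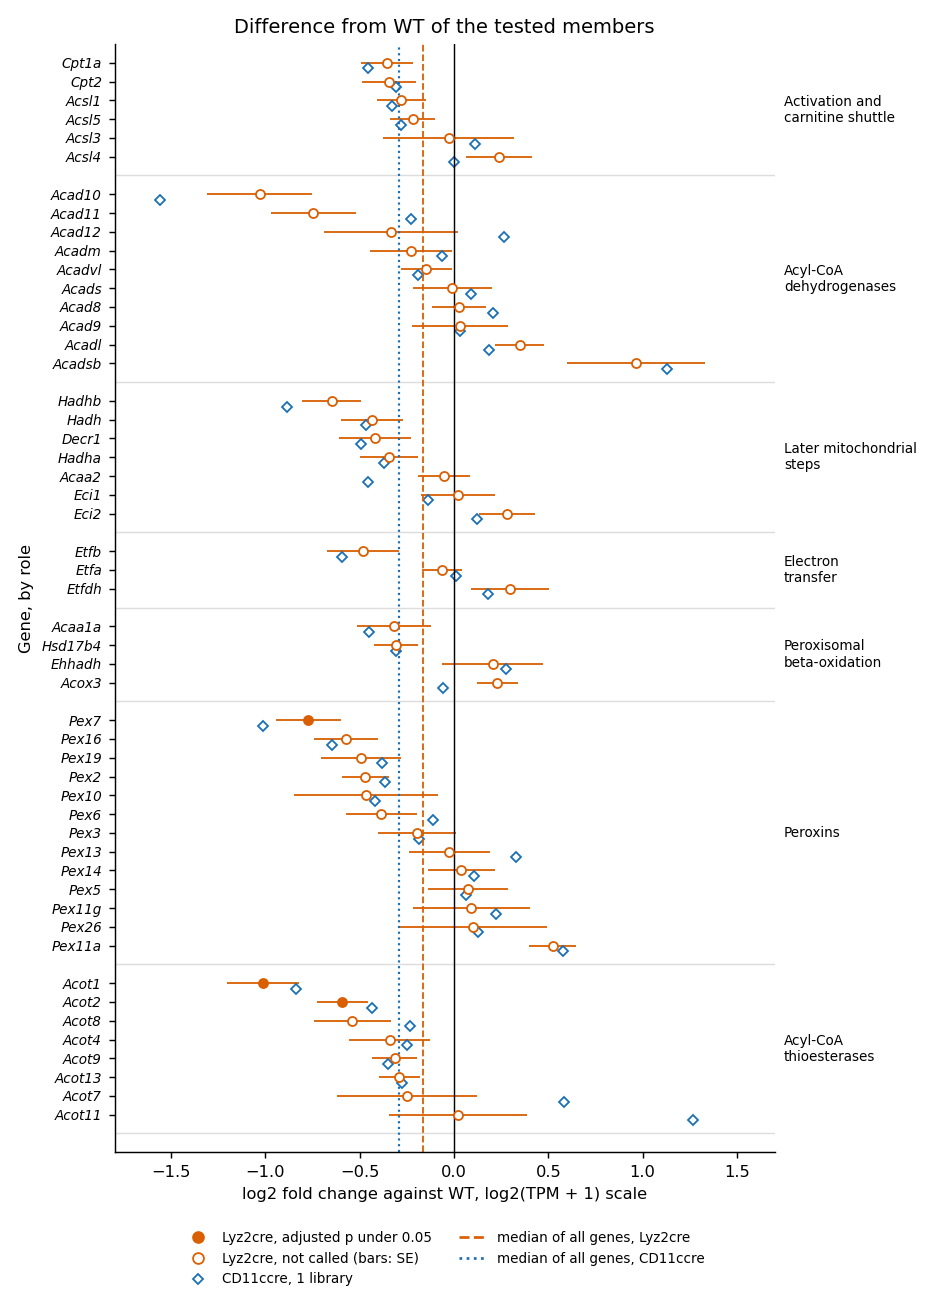
Log2 fold change against WT, on the log2(TPM + 1) scale, of 51 of the 55 tested members by role: orange circles with SE bars for Lyz2cre (n = 3 against 3), blue diamonds for the 1 CD11ccre library, and dashed and dotted lines at the median of all genes tested in each comparison. The filled circles of Acot1, Acot2 and Pex7 mark the members that passed the test, and the others lie on both sides of the Lyz2cre all-gene median of -0.16.

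The members cover a wide range of levels. A mean of 100 TPM or more over the 7 libraries was reached by 8 members, 35 lay between 10 and 100 TPM, 12 between 1 and 10 TPM, and 10 were under 1 TPM. The most abundant included Etfb, Hadha, Etfa, Hadhb, Hsd17b4, Acaa1a and Eci2, which take in both electron-transfer flavoprotein subunits, both trifunctional protein subunits and enzymes of the peroxisomal spiral. Cpt1c, the brain-type carnitine palmitoyltransferase, Acot12 and Acot5 were listed at 0 in every library. Acsl6, Acot3, Acot6, Acot10, Acox2 and Pex5l did not exceed 0.48 TPM in any library, and Cpt1b is described below.

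**Figure D2:**
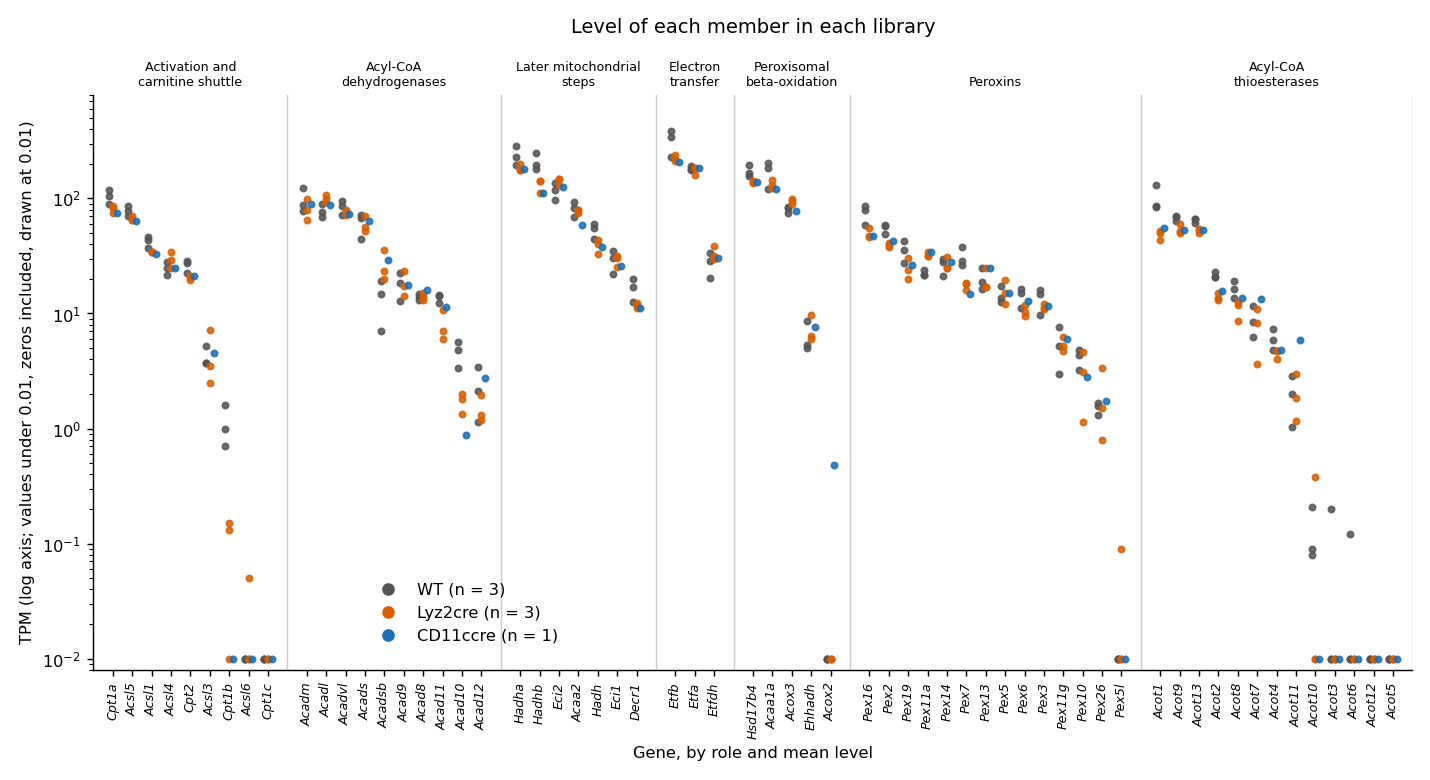
TPM of 61 of the 65 members in each library, on a log axis with values under 0.01 drawn at 0.01, ordered by role and by mean level within a role; grey is WT, orange Lyz2cre and blue CD11ccre. The members with a mean of at least 100 TPM belong to the later mitochondrial steps, electron transfer and peroxisomal beta-oxidation.

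Genes of fatty acid activation and of the carnitine shuttle gave 0 calls among 6 tested of 9, with 3 members wholly below WT in Lyz2cre (Acsl1, Cpt1a and Cpt2). Over all genes 4.60% were called lower and 23.3% were wholly below WT. Cpt1a, which attaches carnitine to long-chain acyl groups at the outer mitochondrial membrane and limits the rate of their entry, stood at 106, 89.3 and 117 TPM across WT, at 86.2, 81.9 and 74.3 TPM across Lyz2cre and at 75.04 TPM in the CD11ccre library. Its log2 fold change in Lyz2cre was -0.36 ± 0.14 (SE, adjusted p = 0.164), and in CD11ccre -0.46 (adjusted p = 0.218). All 3 Lyz2cre libraries and the CD11ccre library lay below the lowest WT library. Cpt2, which removes the carnitine again inside the mitochondrion, stood at 27.7, 22.7 and 28.6 TPM across WT, at 21.1, 19.5 and 20.7 TPM across Lyz2cre and at 20.99 TPM in the CD11ccre library, with the Lyz2cre libraries also wholly below WT (log2 fold change -0.35, adjusted p = 0.192). Acsl5, the most abundant of the synthetases, which join fatty acids to coenzyme A, averaged 78.3 ± 8.08 TPM over the WT libraries and 66.9 ± 3.35 TPM over the Lyz2cre libraries (mean ± SD, n = 3), and its groups overlapped (log2 fold change -0.22, adjusted p = 0.311). The remaining tested members were Acsl1 at 42.04 and 34.3 TPM, Acsl3 at 4.203 and 4.403 TPM and Acsl4 at 24.8 and 29.5 TPM in WT and Lyz2cre. Cpt1b, the muscle form, stood at 0.99, 1.59 and 0.7 TPM across WT, at 0.15, 0 and 0.13 TPM across Lyz2cre and at 0 TPM in the CD11ccre library and was under the level for testing. Of its possible 75-base sequences 77.11% also occur in the gene model Gm44502. No gene of that name is among the 47643 genes measured, so how such reads were assigned is not known. The summed TPM of the 9 genes was 84.2% of the WT mean in Lyz2cre and 79.2% in CD11ccre.

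The acyl-CoA dehydrogenases, which carry out the first step of the spiral for chains of different length, lay on both sides of WT. All 10 were tested and 0 passed, beside 4.60% of all genes called lower and 2.17% higher in Lyz2cre. In Lyz2cre 2 were wholly below WT (all genes 23.3%) and 2 wholly above (all genes 7.45%). Their summed TPM in Lyz2cre was 100.2% of that in WT. Acadm, for medium chains, averaged 96.2 ± 24.6 TPM over the WT libraries and 81.5 ± 16.9 TPM over the Lyz2cre libraries (mean ± SD, n = 3), with overlapping groups (log2 fold change -0.23, adjusted p = 0.567). Acadl, for long chains, stood at 88.8, 76.2 and 69.3 TPM across WT, at 98.6, 93.0 and 107 TPM across Lyz2cre and at 88.6 TPM in the CD11ccre library. The lowest Lyz2cre library was above the highest WT library, but the difference did not pass (log2 fold change 0.35 ± 0.13 SE, adjusted p = 0.155, and 0.19, adjusted p = 0.591 in CD11ccre). Within each library the ratio of Acadl to Acadvl, the very long chain enzyme, which does not depend on library scaling, was 1.03, 0.79 and 0.97 in WT, 1.22 or more in each Lyz2cre library and 1.21 in CD11ccre.

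Acadsb, which acts on short branched chains from isoleucine breakdown, stood at 19.2, 7.04 and 14.7 TPM across WT, at 23.6, 19.9 and 35.96 TPM across Lyz2cre and at 28.9 TPM in the CD11ccre library. The WT libraries alone spread from 7.04 to 19.2 TPM, and the log2 fold change was 0.97 ± 0.37 (SE, adjusted p = 0.161). At the other end were Acad10 and Acad11, dehydrogenases of less common acyl-CoAs. Acad10 stood at 3.36, 5.65 and 4.79 TPM across WT, at 1.80, 2.00 and 1.34 TPM across Lyz2cre and at 0.87 TPM in the CD11ccre library, wholly below WT and a ratio of means of 2.68, with a log2 fold change of -1.03 ± 0.28 (SE, adjusted p = 0.0729) in Lyz2cre and -1.56 (adjusted p = 0.0816) in CD11ccre. Its low level and the 11.44% of its 75-base sequences that Acad12, its neighbour 2087 bases away, also holds limit what can be said of it. Acad11 stood at 14.2, 12.3 and 14.4 TPM across WT, at 10.7, 7.08 and 5.97 TPM across Lyz2cre and at 11.4 TPM in the CD11ccre library, and the CD11ccre library was nearer to WT than any Lyz2cre library (log2 fold change -0.75, adjusted p = 0.0933 in Lyz2cre, -0.23, adjusted p = 0.708 in CD11ccre). The remaining members Acad8, Acad9, Acad12, Acads and Acadvl had overlapping groups and adjusted p values from 0.560 to 0.985.

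The later steps of the mitochondrial spiral gave 0 calls among 7 tested members, with Hadh, Hadhb and Decr1 wholly below WT in Lyz2cre and 0 wholly above. Over all genes 4.60% were called lower, 23.3% were wholly below WT and 7.45% wholly above. Hadha and Hadhb encode the alpha and beta subunits of the trifunctional protein, which performs the last 3 reactions on long chains in 1 complex. They lie head to head on chromosome 5 of mm10, Hadha at 30118304 to 30155162 on the minus strand and Hadhb at 30155248 to 30184593 on the plus strand, with 85 bases between them. Hadhb stood at 249, 194 and 182 TPM across WT, at 142, 141 and 113 TPM across Lyz2cre and at 111 TPM in the CD11ccre library. Its log2 fold change was -0.65 ± 0.16 (SE, adjusted p = 0.0539) in Lyz2cre and -0.89 (adjusted p = 0.0799) in CD11ccre, just outside the threshold in the first. It passed in Lyz2cre with a mean TPM of at least 5 (adjusted p = 0.0413), with robust fitting (0.0414), without CD11ccre (0.0492) and over nuclear protein-coding genes (-0.76, adjusted p = 0.0080), and in CD11ccre with the last of these (-0.99, adjusted p = 0.0195). In Lyz2cre Hadhb passed in 4 of the 18 alternatives run. With any 1 WT or Lyz2cre library left out it did not pass (adjusted p from 0.0640 to 0.162). Hadha stood at 288, 229 and 195 TPM across WT, at 200.4, 178 and 176 TPM across Lyz2cre and at 181 TPM in the CD11ccre library, with overlapping groups (log2 fold change -0.34, adjusted p = 0.226). The ratio of Hadhb to Hadha was 0.86, 0.85 and 0.93 in the WT libraries, 0.71, 0.79 and 0.64 in Lyz2cre and 0.61 in CD11ccre, so every library of either Cre line lay below every WT library. The ratio of a pair chosen after its values were seen is given without a test. Of the 75-base sequences of Hadhb 16.44% also occur in the pseudogene Gm13910, which was listed at 0.46 to 7.07 TPM.

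Hadh, the dehydrogenase for medium and short chains, stood at 59.6, 55.9 and 44.3 TPM across WT, at 40.5, 43.5 and 33.1 TPM across Lyz2cre and at 38.01 TPM in the CD11ccre library (log2 fold change -0.44, adjusted p = 0.162). Decr1, a reductase needed for polyunsaturated chains, averaged 16.5 ± 3.68 TPM over the WT libraries and 11.9 ± 0.594 TPM over the Lyz2cre libraries (mean ± SD, n = 3), with an adjusted p of 0.230. Eci1 and Eci2, isomerases for unsaturated chains, averaged 29.003 and 29.02 TPM and 117 and 141 TPM in WT and Lyz2cre and gave adjusted p values of 0.965 and 0.286. Acaa2, the thiolase for medium chains, averaged 81.8 ± 12.1 TPM over the WT libraries and 78.2 ± 2.92 TPM over the Lyz2cre libraries (mean ± SD, n = 3) and stood at 58.9 TPM in CD11ccre, below the WT range.

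Electron-transfer flavoprotein takes electrons from the dehydrogenases and passes them to the respiratory chain through Etfdh. The 3 genes of this step gave 0 calls and 0 members without overlap of Lyz2cre with WT. Of all genes 4.60% were called lower and 2.17% higher in Lyz2cre, and 23.3% were wholly below WT and 7.45% wholly above. Etfb, the most abundant member of all, stood at 385, 343 and 229 TPM across WT, at 219, 238 and 212 TPM across Lyz2cre and at 206 TPM in the CD11ccre library. The third WT library lay within the Lyz2cre range and the others far above it, and the log2 fold change was -0.48 ± 0.19 (SE, adjusted p = 0.175). It passed in 2 of the 18 alternatives run, among them the fit without WT replicate 3 (-0.70, adjusted p = 0.0303). The partner subunit Etfa stood at 182, 192 and 176 TPM across WT, at 183, 185 and 159 TPM across Lyz2cre and at 185 TPM in the CD11ccre library, and its small difference (log2 fold change -0.06, adjusted p = 0.767) turned positive with median-of-ratios scaling, at 0.12, with quantile normalization, at 0.07, without the abundant transcripts, at 0.10, and without Lyz2cre replicate 3. Of the 75-base sequences of Etfb 39.61% are shared with the overlapping gene model Gm45233. No gene of that name is among the 47643 genes measured, so how such reads were assigned is not known. Etfdh averaged 27.4 ± 6.69 TPM over the WT libraries and 33.3 ± 4.58 TPM over the Lyz2cre libraries (mean ± SD, n = 3), with a log2 fold change of 0.30 (adjusted p = 0.429).

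Peroxisomal beta-oxidation gave 0 calls among 5 tested of 6 members, beside 4.60% of all genes called lower and 2.17% higher in Lyz2cre. In Lyz2cre 1 member was wholly below WT (all genes 23.3%) and 1 wholly above (all genes 7.45%). Hsd17b4, the bifunctional enzyme of the peroxisomal spiral, stood at 197, 166 and 156 TPM across WT, at 136, 143 and 139 TPM across Lyz2cre and at 139 TPM in the CD11ccre library, wholly below WT in Lyz2cre but not past the test (log2 fold change -0.31, adjusted p = 0.166). Acox3, an oxidase of branched chains, stood at 82.5, 74.5 and 83.96 TPM across WT, at 94.3, 99.8 and 88.9 TPM across Lyz2cre and at 77.1 TPM in the CD11ccre library, wholly above WT in Lyz2cre and within the WT range in CD11ccre (log2 fold change 0.23, adjusted p = 0.2501 and -0.06, adjusted p = 0.861). Acaa1a, a peroxisomal thiolase, stood at 202, 184 and 121 TPM across WT, at 130.1, 144 and 124 TPM across Lyz2cre and at 120.5 TPM in the CD11ccre library, with overlapping groups (log2 fold change -0.32, adjusted p = 0.364). Ehhadh averaged 6.28 and 7.37 TPM in WT and Lyz2cre, and Acox2 was listed at 0 in 6 libraries and at 0.48 TPM in CD11ccre.

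Acaa1a has a close relative, Acaa1b, which the choice of names left out and which is given with the other pathway genes. Acaa1b (chromosome 9, 119148023 to 119157093, minus strand) stood at 310.3, 314 and 195 TPM across WT, at 114, 136 and 59.1 TPM across Lyz2cre and at 69.5 TPM in the CD11ccre library. It fell 2.65-fold in Lyz2cre (log2 fold change -1.45 ± 0.33 SE, adjusted p = 0.0443), and CD11ccre gave -1.93 (adjusted p = 0.0717). This call was lost on leaving out any 1 of the 6 libraries of WT and Lyz2cre, with adjusted p from 0.0538 to 0.129. The ratio of Acaa1b to Acaa1a was 1.54, 1.71 and 1.61 in WT, 0.88, 0.94 and 0.48 in Lyz2cre and 0.58 in CD11ccre, so the order of the 2 thiolases differed between WT and every library of the Cre lines. Of the 75-base sequences of Acaa1b 24.36% also occur in Acaa1a, which makes the split between them uncertain. The sum of both averaged 442 TPM over WT and 236 TPM over Lyz2cre, a log2 fold change of -0.89 that did not pass (adjusted p = 0.0619).

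The peroxins gave 1 call, Pex7, among 16 tested of 17 members, with 4 wholly below WT in Lyz2cre, among them Pex2, Pex7 and Pex16, 1 wholly above (Pex11a) and 15 not called. Over all genes 4.60% were called lower, 23.3% were wholly below WT and 7.45% wholly above. Pex7 (ENSMUSG00000020003, chromosome 10, 19853900 to 19907689, minus strand) binds enzymes with the second peroxisomal targeting signal, among them the thiolase Acaa1a and the plasmalogen enzyme Agps, and brings them to the membrane with Pex5. It stood at 26.5, 37.9 and 28.5 TPM across WT, at 17.96, 18.6 and 16.03 TPM across Lyz2cre and at 14.7 TPM in the CD11ccre library. Each Lyz2cre library and the CD11ccre library lay below the lowest WT library, and the mean fell 1.77-fold in Lyz2cre. The log2 fold change was -0.77 ± 0.17 (SE, adjusted p = 0.0417) in Lyz2cre and -1.01 (adjusted p = 0.0716) in CD11ccre. The Lyz2cre call was lost on leaving out any 1 of the 6 libraries of WT and Lyz2cre, with adjusted p from 0.0675 to 0.141 and a log2 fold change from -0.87 to -0.62, and with median-of-ratios scaling (-0.60, adjusted p = 0.110). Pex7 overlaps the gene model Gm48714 on its own strand.

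Among the other import peroxins, Pex5, the receptor for the first targeting signal, averaged 14.6 and 15.6 TPM in WT and Lyz2cre (adjusted p = 0.871). The docking proteins Pex13 and Pex14 averaged 19.9 and 19.6 TPM and 26.2 and 26.9 TPM, with adjusted p of 0.960 and 0.921. Pex2 and Pex10 are RING subunits of a membrane ubiquitin ligase that marks the receptors for recycling. Pex2 stood at 59.1, 48.8 and 57.7 TPM across WT, at 37.9, 39.1 and 41.3 TPM across Lyz2cre and at 42.5 TPM in the CD11ccre library, with the groups apart but not past the threshold (log2 fold change -0.47, adjusted p = 0.0709). Pex10 averaged 4.12 and 2.97 TPM, and the receptor export proteins Pex6 and Pex26 had overlapping groups and adjusted p of 0.257 and 0.907.

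Of the 3 genes for assembly of the peroxisomal membrane, Pex16 was the highest peroxin and stood at 79.5, 86.6 and 59.3 TPM across WT, at 46.97, 55.8 and 46.5 TPM across Lyz2cre and at 46.98 TPM in the CD11ccre library. The Lyz2cre libraries were wholly below WT (log2 fold change -0.57, adjusted p = 0.09097). The difference passed in 2 of the 18 alternatives run, among them the fit without WT replicate 3 (adjusted p = 0.0409). Pex19, the chaperone of membrane proteins, averaged 35.1 ± 7.52 TPM over the WT libraries and 24.6 ± 5.26 TPM over the Lyz2cre libraries (mean ± SD, n = 3), with a log2 fold change of -0.49 (adjusted p = 0.209), and its docking partner Pex3 averaged 13.5 and 11.4 TPM. Pex11a, whose product elongates and divides peroxisomes (chromosome 7, 79735957 to 79743131, minus strand), stood at 21.7, 21.7 and 23.98 TPM across WT, at 31.8, 31.7 and 34.6 TPM across Lyz2cre and at 33.95 TPM in the CD11ccre library. It was the sole peroxin wholly above WT in Lyz2cre, and the CD11ccre library lay in the Lyz2cre range. Its log2 fold change was 0.52 ± 0.12 (SE, adjusted p = 0.05104) in Lyz2cre and 0.58 (adjusted p = 0.119) in CD11ccre. It passed the test in Lyz2cre with median-of-ratios scaling (0.70, adjusted p = 0.0271), with quantile normalization (0.69, adjusted p = 0.0314) and without the abundant transcripts (0.69, adjusted p = 0.0283). It also passed with no filter on low values (adjusted p = 0.0488) and with a mean TPM of at least 5 (adjusted p = 0.0402). These were 5 of the 18 alternatives run. With any 1 WT or Lyz2cre library left out it did not pass (adjusted p from 0.0622 to 0.163).

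The acyl-CoA thioesterases, which release free fatty acid and coenzyme A from acyl-CoA, held the other 2 calls. Of 13 members 8 were tested, 2 fell, 0 rose and 6 did not pass, and 6 of the 8 were wholly below WT in Lyz2cre, beside 4.60% of all genes called lower and 23.3% wholly below. Their summed TPM was 67.5% of the WT mean in Lyz2cre and 74.3% in CD11ccre. Acot1 (ENSMUSG00000072949), Acot2 (ENSMUSG00000021226), Acot3, Acot4, Acot5 and Acot6 lie in 1 cluster on the plus strand of chromosome 12, with Acot2 at 83987861 to 83993873 and Acot1 at 84009490 to 84018371, 15616 bases apart. The 250 bases before the RefSeq start of the 2 called neighbours and of Pex7, the third member called, are given so that the members that fell can be set side by side at their start sites. They are written 5′ to 3′ in the direction of the gene, from RefSeq on GRCm38.p6, and capitals mark matches to the core of the antioxidant response element.
Acot1, plus strand, chr12:84009252-84009501: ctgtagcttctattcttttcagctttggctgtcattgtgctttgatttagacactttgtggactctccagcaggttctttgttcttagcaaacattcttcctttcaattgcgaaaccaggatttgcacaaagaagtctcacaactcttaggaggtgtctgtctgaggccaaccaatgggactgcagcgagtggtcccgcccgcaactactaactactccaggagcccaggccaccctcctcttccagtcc
Acot2, plus strand, chr12:83987611-83987860: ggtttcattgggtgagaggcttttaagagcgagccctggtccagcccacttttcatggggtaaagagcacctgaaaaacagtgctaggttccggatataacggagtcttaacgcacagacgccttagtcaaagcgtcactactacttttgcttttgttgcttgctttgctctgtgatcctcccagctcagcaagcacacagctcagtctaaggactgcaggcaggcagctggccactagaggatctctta
Pex7, minus strand, chr10:19907675-19907924: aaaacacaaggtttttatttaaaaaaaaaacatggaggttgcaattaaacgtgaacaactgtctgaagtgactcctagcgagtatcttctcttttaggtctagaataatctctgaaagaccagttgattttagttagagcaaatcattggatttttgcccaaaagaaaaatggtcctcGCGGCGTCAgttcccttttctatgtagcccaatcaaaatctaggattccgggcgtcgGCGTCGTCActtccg

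The windows of Acot1 and Acot2 hold neither of the motifs searched, and that of Pex7 holds the core TGACNNNGC at 2 places, on the strand opposite to the gene, starting 72 and 15 bases before the start. The pair of matches does not overlap, and the nearer one lies inside the longer GENCODE model of Pex7. Over 250 bases before and 50 after the start, on both strands, that core was found in 12.4% of 32851 RefSeq promoters and in 7 of the 51 members with a promoter (Acad12, Acot3, Acox2, Acsl6, Ehhadh, Pex11g and Pex7). The members were counted by gene, with a match in any of their 61 promoters, while the share is by promoter. The direct repeat DR1, the form bound by PPAR with RXR, was found in 13 of the 32851 promoters and in 0 of the 51 members. A match is a description of the letters alone.

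Acot1, the cytosolic enzyme, stood at 132, 86.8 and 84.4 TPM across WT, at 49.8, 51.95 and 43.96 TPM across Lyz2cre and at 54.96 TPM in the CD11ccre library. The lowest WT library was well above the highest Lyz2cre library, and the mean fell 2.08-fold, from 101 ± 26.9 TPM over the WT libraries to 48.6 ± 4.14 TPM over the Lyz2cre libraries (mean ± SD, n = 3). The log2 fold change was -1.01 ± 0.19 (SE, adjusted p = 0.0258), and -0.84 (adjusted p = 0.133) in CD11ccre. WT replicate 1 stood apart at 132 TPM, and without it the fall was -0.81 (adjusted p = 0.0394). The call was lost without WT replicate 2, at an adjusted p of 0.0563, or without Lyz2cre replicate 1 (0.0776), 2 (0.0700) or 3 (0.09998), with log2 fold changes from -1.11 to -0.95. It was present in 12 of the 19 alternatives run.

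Acot2, the mitochondrial enzyme, stood at 22.8, 20.7 and 20.9 TPM across WT, at 13.6, 14.9 and 13.2 TPM across Lyz2cre and at 15.6 TPM in the CD11ccre library. The groups were narrow and did not overlap, and the mean fell 1.54-fold, from 21.5 ± 1.13 TPM over the WT libraries to 13.9 ± 0.895 TPM over the Lyz2cre libraries (mean ± SD, n = 3). The log2 fold change was -0.59 ± 0.14 (SE, adjusted p = 0.0467), and -0.44 (adjusted p = 0.236) in CD11ccre. This call was lost on leaving out any 1 of the 6 libraries of WT and Lyz2cre (adjusted p from 0.0746 to 0.148) and with median-of-ratios scaling (-0.42, adjusted p = 0.125). Acot1 and Acot2 share sequence: 20.45% of the 75-base sequences of Acot2 also occur in Acot1, and 11.19% the other way. Their sum, which does not depend on that split, averaged 123 TPM over WT and 62.5 TPM over Lyz2cre and fell by 0.94 on the log2 scale (adjusted p = 0.0234), with -0.76 (adjusted p = 0.129) in CD11ccre. The ratio of Acot1 to Acot2 was 5.80, 4.18 and 4.03 in WT, 3.66, 3.48 and 3.33 in Lyz2cre and 3.52 in CD11ccre.

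**Figure D3:**
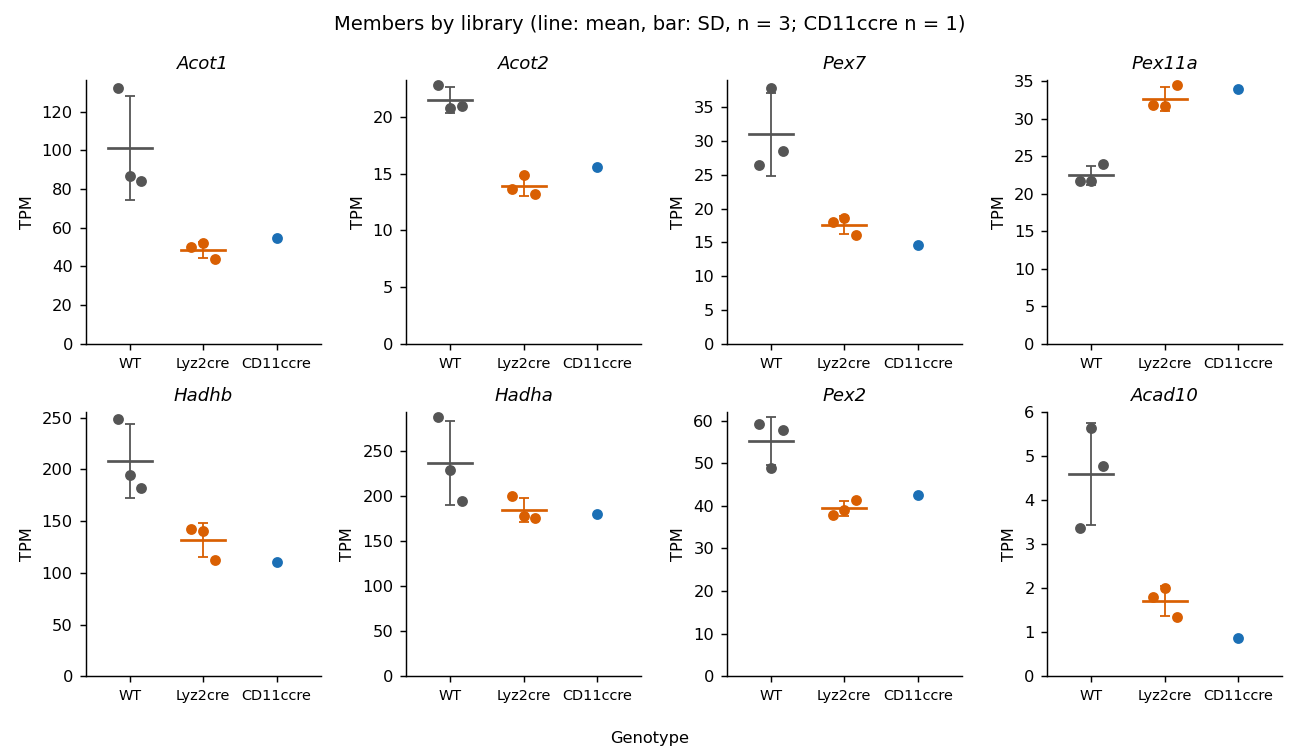
TPM of 8 members in each library by genotype, with points for libraries, horizontal lines for means and bars for SD (n = 3 for WT and Lyz2cre, 1 library for CD11ccre), on axes that start at 0. Acot1, Acot2, Pex7, Hadhb, Pex2 and Acad10 lie wholly below WT in Lyz2cre, Pex11a lies wholly above and Hadha overlaps.

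Acot9 and Acot13, which act in mitochondria and on the outer membrane of mitochondria, were the next most abundant thioesterases. Acot9 stood at 69.3, 63.5 and 70.3 TPM across WT, at 59.95, 50.4 and 52.5 TPM across Lyz2cre and at 52.8 TPM in the CD11ccre library, and Acot13 at 60.95, 66.6 and 65.7 TPM across WT, at 54.02, 50.2 and 53.1 TPM across Lyz2cre and at 52.97 TPM in the CD11ccre library. Both were wholly below WT in Lyz2cre without passing the test (log2 fold change -0.32, adjusted p = 0.164 and -0.29, adjusted p = 0.158). Acot10, an intronless copy of Acot9 with 8.2% of its 75-base sequences in common with it, did not exceed 0.38 TPM. Acot8, the peroxisomal thioesterase of broad range, stood at 16.5, 19.2 and 13.5 TPM across WT, at 12.6, 11.9 and 8.53 TPM across Lyz2cre and at 13.7 TPM in the CD11ccre library (log2 fold change -0.54, adjusted p = 0.162). Acot4, another peroxisomal form in the chromosome 12 cluster, averaged 6.03 and 4.497 TPM in WT and Lyz2cre (adjusted p = 0.375), while its neighbours Acot3, Acot5 and Acot6 were at 0.20 TPM or less in every library. Acot7 and Acot11 were above the WT range in CD11ccre, at 13.3 and 5.90 TPM against WT means of 8.75 and 1.97 TPM, but neither passed (adjusted p = 0.555 and 0.207).

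**Figure D4:**
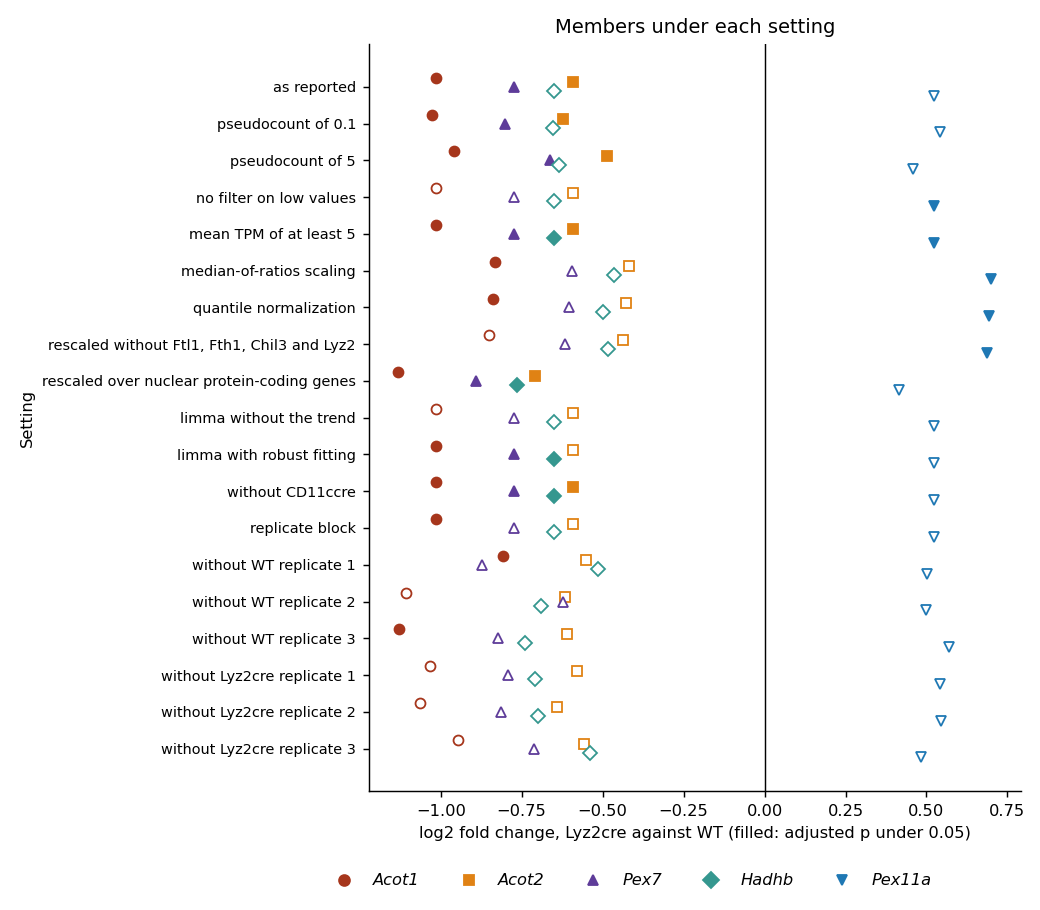
Log2 fold change of Lyz2cre against WT for Acot1, Acot2, Pex7, Hadhb and Pex11a as reported and under 18 alternatives, 1 per row, with filled symbols where the adjusted p was under 0.05. No symbol crosses 0, Acot1 is filled as reported and under 11 of the alternatives drawn, and Acot2 and Pex7 are open in every row that leaves out 1 WT or Lyz2cre library.

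Between the Cre lines themselves, 0 of the 55 members differed past the threshold, beside 0.114% of all genes. At an unadjusted p under 0.05 3 members, among them Acot11, differed (5.45%, all genes 6.10%). For Acot11 the difference of CD11ccre from Lyz2cre was 1.25 (adjusted p = 0.817). The comparisons of both lines with WT share the WT libraries, so their values are set side by side and are not independent. CD11ccre lay below the WT range for 26 of the 55 members (47.3%, all genes 50.5%) and above it for 7 (12.7%, all genes 13.0%). Among the members far below WT in CD11ccre were Acad10, Pex7, Hadhb and Acot1, with log2 fold changes from -1.56 to -0.84, and 0 of them passed.

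Beside the members, 3 lists of other pathway genes were examined. Of 18 other fatty acid oxidation genes 17 were tested, and 2 fell in Lyz2cre (all genes 4.60%) and 0 rose (all genes 2.17%). These were Acaa1b and Acss1, a mitochondrial acetyl-CoA synthetase, which stood at 51.96, 49.2 and 51.3 TPM across WT, at 34.8, 34.9 and 26.4 TPM across Lyz2cre and at 25.2 TPM in the CD11ccre library. Acss1 fell 1.59-fold (log2 fold change -0.66 ± 0.15 SE, adjusted p = 0.04202), with -0.98 (adjusted p = 0.0553) in CD11ccre, and the call was lost on leaving out any 1 of the 6 libraries of WT and Lyz2cre (adjusted p from 0.0823 to 0.117). Slc25a20, which carries acylcarnitines across the inner membrane, averaged 51.3 ± 6.44 TPM over the WT libraries and 36.2 ± 2.92 TPM over the Lyz2cre libraries (mean ± SD, n = 3), with a log2 fold change of -0.49 (adjusted p = 0.0874). Of 31 other peroxisomal genes 28 were tested and 0 passed in either direction, beside 4.60% of all genes lower and 2.17% higher in Lyz2cre. Among the abundant enzymes of that list, Prdx5 averaged 573 and 577 TPM in WT and Lyz2cre (adjusted p = 0.905) and Idh1 208 and 185 TPM (adjusted p = 0.409). Scp2, a sterol carrier and thiolase, averaged 429 and 345 TPM (adjusted p = 0.0931). Cat, the catalase that removes hydrogen peroxide, averaged 100.4 and 113 TPM (adjusted p = 0.501). Of the tested genes of that list, Scp2, Phyh, Pxmp4, Lonp2, Tysnd1, Acbd5, Abcd3 and Dnm1l were wholly below WT in Lyz2cre (all genes 23.3%). Nudt12 was wholly above (all genes 7.45%). Agps, which Pex7 imports, averaged 27.6 and 19.4 TPM (adjusted p = 0.203).

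Of 19 regulators and targets of PPAR and its coactivator PGC-1, 16 were tested, and Fabp4 and Cd36 rose and Ucp3 fell in Lyz2cre. Over all genes 2.17% were called higher and 4.60% lower. Ppara, the receptor that drives fatty acid oxidation in liver, was listed at 0 in every library, while Pparg stood at 125, 111 and 132 TPM across WT, at 131, 104 and 128 TPM across Lyz2cre and at 167 TPM in the CD11ccre library (log2 fold change -0.02, adjusted p = 0.943). Cd36, a fatty acid transporter, stood at 331, 301 and 324 TPM across WT, at 506, 458 and 553 TPM across Lyz2cre and at 471 TPM in the CD11ccre library and rose 1.59-fold in Lyz2cre (log2 fold change 0.66 ± 0.11 SE, adjusted p = 0.0154), with 0.56 (adjusted p = 0.0893) in CD11ccre. Fabp4, which binds fatty acids in the cytosol, rose 1.69-fold, from 284 ± 15.8 TPM over the WT libraries to 481 ± 54.3 TPM over the Lyz2cre libraries (mean ± SD, n = 3), and stood at 519.9 TPM in CD11ccre (log2 fold change 0.75, adjusted p = 0.01302 and 0.87, adjusted p = 0.0414). Ucp3, a mitochondrial carrier that rises with fatty acid supply in muscle, stood at 50.03, 43.5 and 34.9 TPM across WT, at 20.6, 17.8 and 18.04 TPM across Lyz2cre and at 16.3 TPM in the CD11ccre library and fell 2.27-fold in Lyz2cre (log2 fold change -1.13 ± 0.17 SE, adjusted p = 0.0119) and in CD11ccre (log2 fold change -1.33, adjusted p = 0.0363). In Lyz2cre the Ucp3 call ended without Lyz2cre replicate 3 (adjusted p = 0.0550). That of Fabp4 ended without WT replicate 2 (0.0513) or Lyz2cre replicate 3 (0.0630). That of Cd36 ended without WT replicate 2 (0.0584) or Lyz2cre replicate 1 (0.0603) or 3 (0.0649). The CD11ccre call of Fabp4 ended when any 1 of the 6 other libraries was left out (0.0554 to 0.0907), and that of Ucp3 when any but WT replicate 3 was (0.0664 to 0.0837). With median-of-ratios scaling the CD11ccre value of Ucp3 was -1.02 (adjusted p = 0.0804).

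**Figure D5:**
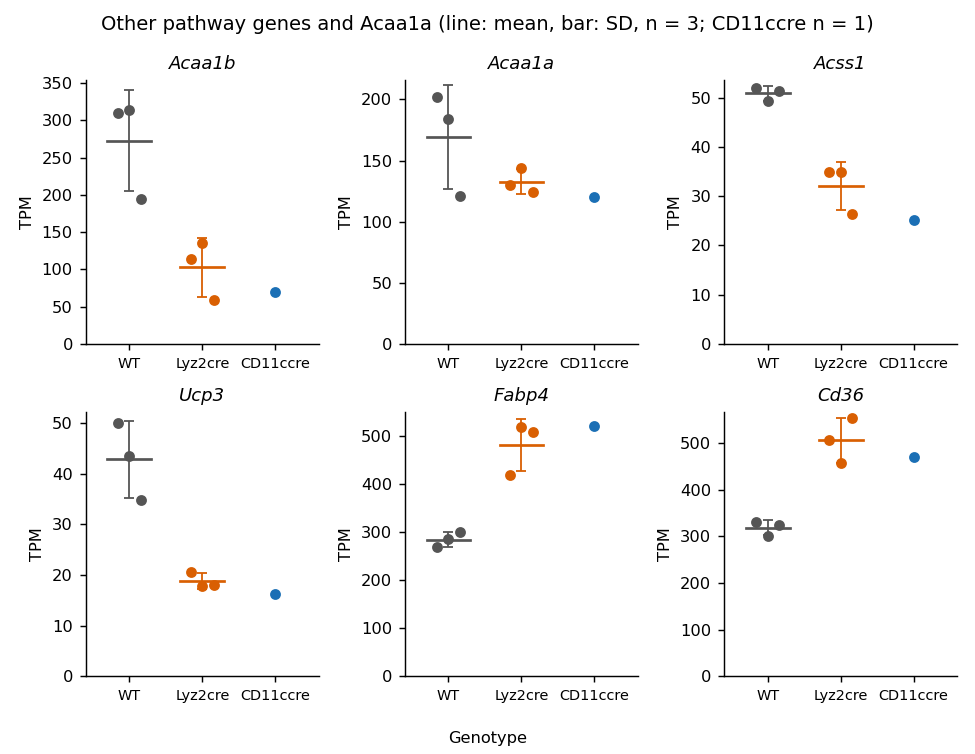
TPM of Acaa1b, Acss1, Ucp3, Fabp4 and Cd36, the other pathway genes that passed the test in Lyz2cre, and of the member Acaa1a, in each library by genotype, with lines for means and bars for SD (n = 3, 1 library for CD11ccre), on axes that start at 0. Acaa1b, Acss1 and Ucp3 lie below WT and Fabp4 and Cd36 above it in every library of either Cre line.

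Of the 12 alveolar macrophage markers themselves, 4 were called higher in Lyz2cre (Chil3, Marco, Car4 and Plet1), 3 were called lower (Siglecf, Ear2 and Cidec) and 5 were not called. Siglecf, a surface protein by which the WT cells are labelled, averaged 231 TPM over WT and 84.5 TPM over Lyz2cre (adjusted p = 0.00746), with the CD11ccre library at 53.9 TPM. Ear2 averaged 6504 and 2697 TPM and Cidec 325 and 132 TPM, while Marco averaged 432 and 1416 TPM and Car4 919 and 2353 TPM. Markers of other cell types also differed in summed level between genotypes. The summed TPM of 6 B cell markers, of which 4 had a mean under 1 TPM, was 6.78 to 17.6 in WT, 0.42 to 2.76 in Lyz2cre and 1.65 in CD11ccre, of which Igkc made up most in WT. That of 7 dendritic cell markers was 6.38 to 24.9, 2.26 to 6.01 and 2.56. Batf3 alone made up most of that difference, with means of 14.9 and 0.98 TPM in WT and Lyz2cre, while Clec9a averaged 0.59 and 1.80 TPM and was wholly above WT, and the other 5 had means under 1 TPM. The 5 club and ciliated cell markers summed to 382 to 552 TPM across WT, 146 to 373 TPM across Lyz2cre and 314 TPM in CD11ccre. Their lower sum came from Tppp3, with means of 285 and 87.9 TPM, while Scgb1a1, the main club cell marker, averaged 149 and 194 TPM with overlapping groups. The 7 neutrophil markers summed to 53.5 to 104, 119 to 160 and 144 TPM, with Ly6g and Camp at 0 in every library. These 7 did not move together: S100a8 averaged 24.9 and 101 TPM and was called higher in Lyz2cre (adjusted p = 0.00985), Csf3r averaged 21.2 and 8.38 TPM and was called lower (adjusted p = 0.0392), and S100a9 averaged 19.8 and 4.40 TPM without passing (adjusted p = 0.117). The 6 endothelial markers summed to 30.2 to 59.9, 88.1 to 127 and 72.7 TPM, of which Vwf made up nearly all. Markers of T and NK cells summed to at most 2.76 TPM, those of fibroblasts to 5.12 to 11.6 TPM and those of alveolar type 2 cells to 71.4 to 96.5 TPM in a library. The part of these markers in the differences of the fatty acid oxidation and peroxisome genes was not tested, and neither was that of the mitochondrial share of the TPM or of Lyz2.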

How the data were processed

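The authors deposited 1 table of TPM, to 2 decimals, with 47643 genes by 7 libraries. Single-end 75-base reads came from poly(A)-selected, strand-specific libraries, per the labels' protocols. Cutadapt 2.3, STAR 2.7.0d, RSEM 1.3.1 and mm10 are named, per the submitters' processing notes, and the annotation, strand setting and filters were not stated. TPM keep no depth, so no counting interval or floor is given.

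Libraries were grouped by title. The main test was limma 3.58.1 (R 4.3.3) on log2(TPM + 1), a scale that understates the change of low genes, for the 11397 genes that averaged 1 TPM or more. All 7 libraries entered 1 fit with a mean-variance trend, a two-sided moderated test and Benjamini-Hochberg adjustment over all genes at 0.05. Residual degrees of freedom were 4 and prior 3.35. CD11ccre adds none, and its spread is taken to equal that of the others. Folds are ratios of mean TPM. Results for 4 members are not reported here. Members, gene lists and tests were chosen with earlier results of these data known. Named were members called, the 2 (peroxins: 4) most abundant and the 2 of smallest p in each role, near copies, members at 0 and called genes of other lists; others named, and within-library ratios, were chosen after values were seen. Coordinates are from GENCODE M21 (mm10), where 65 members matched and 19 overlap another gene on the same strand. Shared 75-base sequences were counted in its transcripts, and 51 members shared under 5%. On simulated data for Lyz2cre against WT over 11397 genes, 200 changes were placed, only in genes of higher level. The fit recovered 69% of changes of 1 and 95% of changes of 2 on the log2 scale, with 8 false calls. Noise was independent between libraries and no shift in composition was simulated. The recovery thus does not speak for members of low level. Same-numbered replicates did not deviate together, so no pairing was used.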

Additional observations from a re-analysis of the deposited data

How the results depend on the processing

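Pseudocounts were 0.1 or 5, the filter on low values was dropped or set to a mean of 5 TPM, scaling was by median of ratios, quantiles, a sum without the abundant Ftl1, Fth1, Chil3 and Lyz2 or a sum over nuclear protein-coding genes, and limma was run with robust fitting, with no trend, with a replicate block, without CD11ccre and without each other library. Summing near copies was added after seeing the data. Depth is unknown, and the lone CD11ccre library limits every statement about it. Leaving out a WT or Lyz2cre library lowers the residual degrees of freedom, and leaving out CD11ccre does not.

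Members called higher in Lyz2cre numbered 1 (Pex11a) with no filter, with a mean TPM of at least 5, with median-of-ratios scaling, with quantile normalization and without the abundant transcripts. Members called lower numbered 0 with no filter, without the abundant transcripts and without the trend, 1 (Acot1) with median-of-ratios scaling and with quantile normalization, and 13 over nuclear protein-coding genes. With each WT or Lyz2cre library left out in turn they numbered 0 to 3. Without CD11ccre, and also with a mean TPM of at least 5, Pex7, Acot2, Hadhb and Acot1 were lower. The replicate numbers share only a number: same-numbered WT and Lyz2cre libraries had correlations of their deviations of -0.01, 0.04 and 0.07, and with the replicate block 1 member (Acot1, adjusted p = 0.0426) was lower and 0 higher. For CD11ccre against WT, no filter gave 1 higher (Acox2, which is at 0 in the other 6 libraries), also 1 in CD11ccre against Lyz2cre, and nuclear protein-coding genes gave 4 lower (Pex7, Acad10, Hadhb and Acot1). The cause was not tested.

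The members' median log2 fold change in Lyz2cre was -0.089 with median-of-ratios scaling, -0.099 with quantile normalization, -0.11 without the abundant transcripts and -0.36 over nuclear protein-coding genes, and that of all genes turned to 0.0020 with median-of-ratios scaling. In CD11ccre the members' median was 0.069 with median-of-ratios scaling, 0.077 with quantile normalization and -0.017 without the abundant transcripts, and less that of all genes it was -0.024 with no filter.

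Alternatives were computed gene by gene for the named members only. Among these, signs of uncalled members turned as follows. With median-of-ratios scaling, Lyz2cre gave 0.12 for Etfa, and CD11ccre gave 0.036 for Acsl5, 0.26 for Acadm, 0.011 for Hsd17b4, 0.0019 for Cpt2, 0.069 for Acad11, 0.041 for Acot13, 0.068 for Acot8, 0.26 for Acox3 and 0.022 for Acot4. With quantile normalization, Lyz2cre gave 0.072 for Etfa, and CD11ccre gave 0.21 for Acadm, 0.085 for Acad11, 0.010 for Acot13, 0.077 for Acot8, 0.20 for Acox3 and 0.034 for Acot4. Without the abundant transcripts, Lyz2cre gave 0.10 for Etfa, and CD11ccre 0.17 for Acadm and 0.17 for Acox3. Over nuclear protein-coding genes Etfa was -0.094 in CD11ccre, and with the replicate block Etfa was -0.013 and Etfdh -0.077 there. Leaving out 1 library turned Etfa in Lyz2cre (-0.10 to 0.0046, positive without Lyz2cre replicate 3) and, in CD11ccre, Acadm (-0.20 to 0.13, positive without WT replicate 1), Etfa (-0.016 to 0.044, negative without WT replicate 3) and Etfdh (-0.015 to 0.34, negative without WT replicate 2).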
